A study of Homo sapiens with 14 samples.

Results

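The tissue kallikreins are secreted serine proteases encoded side by side on chromosome 19, and 10 of them were described here: KLK1, KLK2, KLK3, KLK4, KLK5, KLK6, KLK10, KLK11, KLK12 and KLK15. They are 10 of 20046 genes with a named probe, and all 17 probes that the platform annotation gives them were followed, of 47323 probes. RNA was measured on 14 Illumina bead arrays from 3 human prostate cancer lines. LNCaP, an androgen-sensitive line, carried an shRNA against the transcription factor FoxA1 (shFoxA1, 4 arrays) or a control shRNA (shCtrl, 4 arrays), each with replicates numbered 1 and 2, 1 array labelled R1881, a synthetic androgen, and 1 labelled hormone-deprived. The growth text is worded alike for these 8 arrays and names 3 days in charcoal-stripped serum followed by 1 nM R1881 for 24 hours, so the medium of the numbered arrays is not settled, and the descriptions count the R1881 arrays as replicate 3. The remaining groups had 1 array each: LNCaP with siRNA (siFoxA1, siCtrl), 22RV1 with shRNA (shFoxA1, shCtrl), and PC-3M (labelled FoxA1, Ctrl), for which the series text names stable FoxA1 overexpression. For the siRNA and 22RV1 arrays the growth text gives the same treatment for some experiments without saying which, so their medium is not settled either, and for PC-3M it names RPMI with 10% FBS and no hormone. No label says whether the stable lines were clones or pools, or whether replicates were grown separately. The p-values given here therefore rest on array-to-array spread, which may be technical. In the fit over all 8 LNCaP shRNA arrays, the spread also includes any change of the knockdown difference between medium labels.

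Kallikreins are made as inactive precursors, and several of them can activate one another after secretion. KLK3 (prostate-specific antigen) and KLK2 (human glandular kallikrein, which can activate the KLK3 precursor) are classical androgen-induced genes of prostate luminal cells. FoxA1 opens chromatin for other transcription factors and is bound at the KLK3 enhancer in LNCaP cells. KLK4 is known from enamel formation and is also abundant in prostate epithelium.

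The promoters of KLK3, KLK2 and KLK4 are shown because these genes carried most of the measured change, from 250 bases before to 50 bases from the annotated start on, as given by RefSeq for GRCh38.p14. The windows are chr19:50854665-50854964 for KLK3 and chr19:50873189-50873488 for KLK2, both on the plus strand. KLK4 has 2 annotated starts on the minus strand, with windows chr19:50911346-50911645 (upstream) and chr19:50910689-50910988 (downstream). Capitals mark matches to any of 3 motifs on either strand: AGAACA, the hexamer that steroid hormone receptors bind; a loose pair of such hexamers, GNACA and GTNC with any 4 bases between them; and TGTTTA, the forkhead core.
KLK3: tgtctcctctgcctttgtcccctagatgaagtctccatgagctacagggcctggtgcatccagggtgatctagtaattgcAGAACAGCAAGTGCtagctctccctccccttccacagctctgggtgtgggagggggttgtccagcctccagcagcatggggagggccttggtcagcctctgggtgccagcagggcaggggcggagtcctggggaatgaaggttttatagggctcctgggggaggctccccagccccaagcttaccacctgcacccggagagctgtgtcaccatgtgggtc
KLK2: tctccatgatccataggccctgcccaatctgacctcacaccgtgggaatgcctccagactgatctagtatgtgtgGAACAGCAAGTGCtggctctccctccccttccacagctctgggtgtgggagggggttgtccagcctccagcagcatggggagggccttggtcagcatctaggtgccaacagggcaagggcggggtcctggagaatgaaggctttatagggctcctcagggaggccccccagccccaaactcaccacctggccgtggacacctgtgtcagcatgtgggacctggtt
KLK4, upstream start: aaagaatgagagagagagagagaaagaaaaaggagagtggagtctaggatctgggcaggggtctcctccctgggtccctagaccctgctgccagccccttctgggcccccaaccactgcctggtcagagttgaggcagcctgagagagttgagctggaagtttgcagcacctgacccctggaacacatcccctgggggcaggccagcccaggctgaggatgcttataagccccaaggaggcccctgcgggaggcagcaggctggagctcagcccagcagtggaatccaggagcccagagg
KLK4, downstream start: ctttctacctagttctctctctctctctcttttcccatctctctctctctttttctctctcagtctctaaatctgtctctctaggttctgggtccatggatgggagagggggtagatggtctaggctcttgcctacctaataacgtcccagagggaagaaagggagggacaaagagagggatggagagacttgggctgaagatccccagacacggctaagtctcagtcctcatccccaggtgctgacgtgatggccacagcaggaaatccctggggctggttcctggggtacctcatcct

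The spaced pattern was found in KLK3 with its first base at position -169 and in KLK2 at position -175, in both as GAACAGCAAGTGC, and the hexamer was found at position -170 in KLK3, where it overlaps the spaced match. Of 35116 promoter windows of 300 bases, 2.19% held the spaced pattern, 14.8% the hexamer and 12.3% the forkhead core. The KLK3 and KLK2 windows were identical at 245 of 291 aligned bases (84.2%). None of the 3 motifs occurred in either KLK4 window or in the windows of KLK5, KLK6, KLK10, KLK11, KLK12 and KLK15, which says only that these letters are absent there. The 9 members other than KLK1 had 13 windows.

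The arrays' mean deposited intensities ranged from 157 to 285 (LNCaP shRNA), 235 to 447 (siRNA and 22RV1) and 208 to 222 (PC-3M), and the number of arrays limits the precision. FOXA1, the targeted gene, was lower in LNCaP shFoxA1 than in shCtrl (log2 difference -1.02, SE 0.15, limma adjusted p = 0.0127), and lower in the siRNA and 22RV1 pairs. In PC-3M it was 8.89 on the array labelled FoxA1 and 10.40 on Ctrl, against the label. All 4 luminal prostate markers with a named probe were detected on each of the 14 arrays, and neither of the 2 basal markers on any LNCaP shRNA array. The summed luminal intensity was 1006 to 2068 in shFoxA1 and 1315 to 2863 in shCtrl (linear normalized units). Among markers of other cells, leukocyte, fibroblast and endothelial lists had at most 3 detected members on any LNCaP shRNA array, and VWF, an endothelial marker, differed by -0.97 (adjusted p = 0.0107). The part of these markers in the kallikrein results was not tested.

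In LNCaP, 4 of the 10 kallikreins were detected on at least 2 of the 8 shRNA arrays (KLK2, KLK3, KLK4 and KLK15), and KLK2 and KLK3 rose with FoxA1 knockdown. In RNA from a whole culture, fewer cells of a type and less RNA per cell cannot be told apart. Across all genes tested 7.9% were called in either direction. Across all genes tested, 4.15% were called higher in shFoxA1 and 3.74% lower (limma adjusted p below 0.05, knockdown and medium as terms); 2 members were called higher and 0 lower. Levels are normalized log2 intensities, a detected probe is one above the negative controls, and a level of one gene cannot be set against that of another.

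KLK3 had levels of 8.56, 8.85, 8.64 and 7.71 in shFoxA1 (replicates 1 and 2, R1881, hormone-deprived), against 7.42, 7.90, 7.71 and 5.52 in shCtrl. Each shFoxA1 array was above the shCtrl array of the same label, and the ranges overlapped only through the hormone-deprived shFoxA1 array. The level averaged 8.44 ± 0.50 in shFoxA1 and 7.14 ± 1.10 in shCtrl (SD, n = 4 each). The fitted difference was 1.30 (SE 0.23, 2.47-fold, limma adjusted p = 0.0203), the 141st largest increase of 11892 genes. Leaving out shFoxA1 replicate 2, shCtrl replicate 1, both arrays numbered 2 or the R1881 pair took the adjusted p to 0.0621, 0.0563, 0.129 and 0.0700. Without the medium term the adjusted p was 0.195, and with no filter on dim probes it was 0.0629.

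KLK2 had levels of 7.58, 8.18, 7.78 and 6.55 in shFoxA1, against 7.33, 7.53, 6.69 and 5.00 in shCtrl, in the same order of arrays. The hormone-deprived shCtrl array, the lowest, was not detected, and the groups overlapped. The level averaged 7.52 ± 0.69 in shFoxA1 and 6.64 ± 1.15 in shCtrl (SD, n = 4 each). The difference was 0.89 (SE 0.22, 1.85-fold, limma adjusted p = 0.0468), close to the threshold. It missed the threshold in 14 alternative settings and passed in 8, with adjusted p between 0.0177 and 0.447.

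KLK4 was bright and nearly flat on 7 of the 8 arrays: 11.66, 11.53, 11.56 and 11.50 in shFoxA1, against 11.38, 11.38, 11.49 and 10.26 in shCtrl. The hormone-deprived shCtrl array stood below all the others. The highest shCtrl array (11.49) came within 0.01 of the lowest shFoxA1 array (11.50). With median scaling the R1881 pair turned to -0.60, against a median of -0.50 over detected genes. The fitted difference of 0.43 (SE 0.19) did not pass the test (limma adjusted p = 0.193). KLK15, reported to activate the KLK3 precursor, was dim at 4.68, 5.20, 5.42 and 5.11 in shFoxA1, against 5.96, 5.16, 5.50 and 4.70 in shCtrl. It was detected on the R1881 array alone in shFoxA1, and on replicate 1 and R1881 in shCtrl. Its difference of -0.23 (SE 0.25, limma adjusted p = 0.597) had the other sign, 0.01, without shCtrl replicate 1, and the second KLK15 probe was not detected on any array.

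**Figure D1:**
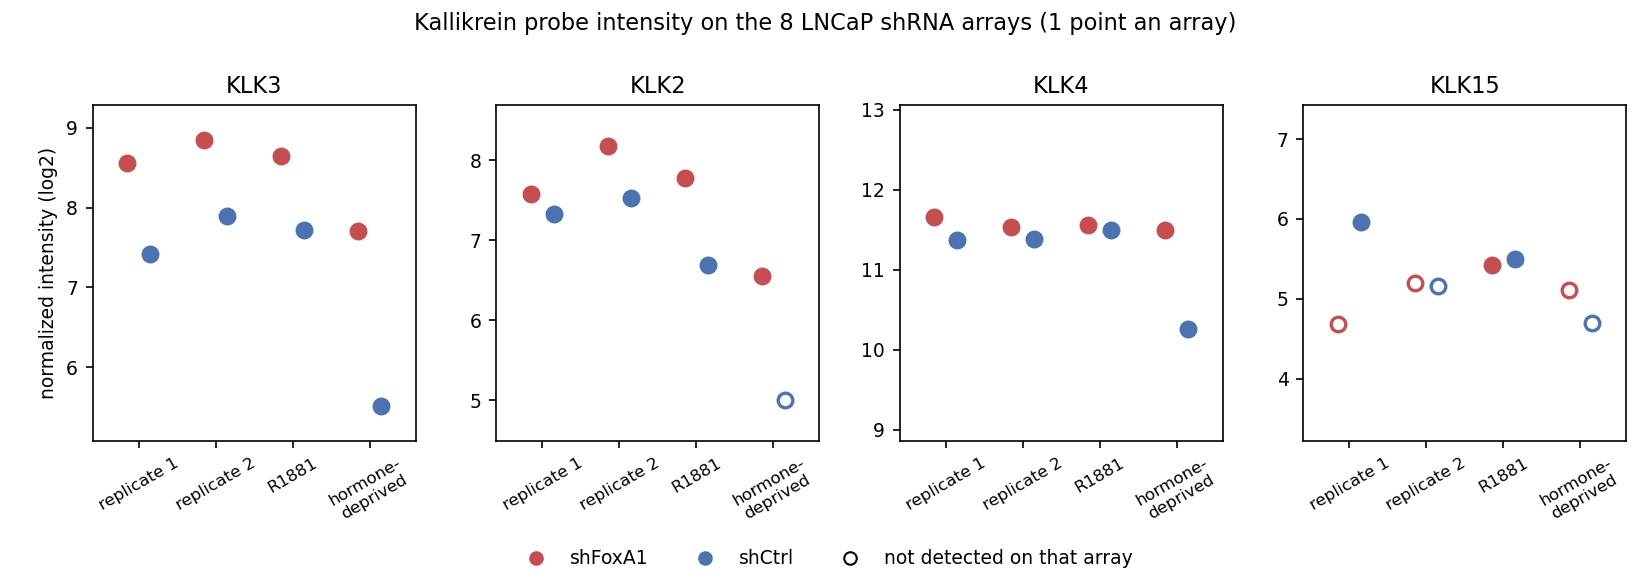
Normalized log2 intensity (vertical axis) of KLK3, KLK2, KLK4 and KLK15 on the 8 LNCaP shRNA arrays, shFoxA1 in red left of shCtrl in blue, 1 point an array, open where the probe was not detected. The hormone-deprived shCtrl array was the lowest for KLK3 (5.52), KLK2 (5.00) and KLK4 (10.26).

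On the numbered arrays alone, 2 with shFoxA1 and 2 with shCtrl, 2.62% of genes were called in either direction (1.65% higher, 0.975% lower) and 0 of the 4 members. KLK3 differed by 1.05 (SE 0.23, limma adjusted p = 0.0749), KLK2 by 0.45 (adjusted p = 0.321) and KLK4 by 0.22 (adjusted p = 0.475). At an unadjusted p under 0.05 in limma, 1 of the 4 members (KLK3) differed, against 25.1% of all genes. The shFoxA1 minus shCtrl differences of KLK3 were 1.14 and 0.95 for numbers 1 and 2, 0.93 for the R1881 pair and 2.19 for the hormone-deprived pair. Those of KLK2 were 0.25, 0.65, 1.09 and 1.55, and those of KLK4 were 0.29, 0.15, 0.06 and 1.24. For all 3 genes the hormone-deprived pair was the widest. In that pair 1.14% of detected genes were at least 2-fold higher with shFoxA1 and 0.657% lower, and 3 kallikreins were higher (KLK3, KLK4 and KLK2, the last by at least 2.79-fold). In the R1881 pair 1.87% were that much higher and 1.87% lower, and 1 kallikrein was higher (KLK2). Over these 4 arrays together 0.00841% of genes were called, all of them lower (0.00841%), and 0 members, while KLK2, KLK3 and KLK4 had unadjusted p of 0.00198, 0.000613 and 0.00874 in limma, where 9.44% of all genes lay under an unadjusted 0.05.

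The hormone comparison set R1881 against hormone-deprived arrays, 1 of each in shFoxA1 and in shCtrl. In shFoxA1, 1.24% of detected genes were at least 2-fold higher with R1881 and 1.74% lower, and 1 kallikrein was higher (KLK2), of 4 detected on either array. In shCtrl, 1.44% of detected genes were that much higher and 1.33% lower, and 3 kallikreins were higher (KLK3, KLK2 and KLK4), of 5 detected on either array. These single pairs have no replicates and no test of their own.

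In shFoxA1, KLK3 was at 8.64 with R1881 and 7.71 in hormone-deprived medium, a log2 difference of 0.93 (1.91-fold). In shCtrl it was at 7.71 with R1881 and 5.52 in hormone-deprived medium, a difference of 2.20 (4.59-fold). The hormone difference of KLK3 was thus the wider one in shCtrl. KLK4 differed by 0.06 (1.04-fold) in shFoxA1 and by 1.23 (2.35-fold) in shCtrl. KLK2 was 2.34-fold higher with R1881 in shFoxA1 and at least 3.07-fold higher in shCtrl, where it was undetected in hormone-deprived medium. KLK15 was detected with R1881 and undetected in hormone-deprived medium under both shRNAs, at least 1.21-fold higher in shFoxA1 and at least 1.35-fold in shCtrl.

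Over both shRNAs, 0.252% of genes were called between R1881 and hormone-deprived medium (0.0757% higher, 0.177% lower) and 0 members, with 2 arrays of each medium in the fit over 8 arrays. KLK3 was higher with R1881 by 1.57 (SE 0.32, limma adjusted p = 0.106) and KLK2 by 1.46 (SE 0.31, adjusted p = 0.112), the 28th and 37th largest differences of 11892. KLK4 differed by 0.65 (SE 0.27, adjusted p = 0.415) and KLK15 by 0.56 (SE 0.35, adjusted p = 0.599). At an unadjusted p under 0.05 in limma, 3 of the 4 members differed (KLK2, KLK3 and KLK4), against 11.6% of all genes. Without the hormone-deprived shCtrl array, the R1881 difference of KLK3 was 0.97 and that of KLK4 was 0.11.

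Whether the knockdown difference itself changed with hormone was tested as an interaction in the fit with 6 group means. Of all genes, 0% were called and 1.61% had an unadjusted p under 0.05, and 0 members were called. The knockdown difference with R1881 minus that in hormone-deprived medium was -1.27 for KLK3 (SE 0.46, unadjusted p = 0.0353 in limma), -1.18 for KLK4 (SE 0.34, unadjusted p = 0.0134) and -0.47 for KLK2 (SE 0.49). The spread of this test came from the numbered arrays, with 2 residual degrees of freedom.

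Set across the design, the hormone-deprived shFoxA1 array lay close to the R1881 shCtrl array for 3 of the 4 measured members. The median difference over detected genes was also near 0 (-0.01), and the share of all genes this close was not counted. KLK15, the remaining member, differed by -0.40. KLK3 was 7.71 on both. KLK4 was 11.50 on the hormone-deprived shFoxA1 array and 11.49 on the R1881 shCtrl array, and KLK2 was 6.55 and 6.69 on these arrays in the same order. This closeness changes with normalization: with none between arrays the differences were -0.91, -1.01 and -0.95, while the median over detected genes was -0.76. The deposited KLK3 intensity with R1881 was 303.9 in shFoxA1 and 294.5 in shCtrl, on arrays whose mean intensity was 167 in shFoxA1 and 285 in shCtrl. With R1881 and no normalization, the knockdown difference was 0.04 for KLK3, 0.23 for KLK2 and -0.82 for KLK4, against a median of -0.72 over detected genes.

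Of the genes around the cluster, the 5 nearest with a named probe on either side were set beside the members. C19orf48P was higher with R1881 by 0.80 in shFoxA1 and 0.88 in shCtrl (limma adjusted p = 0.322 over both). KLKP1, the pseudogene between KLK2 and KLK4, was higher with R1881 by 0.51 in shFoxA1 and 0.55 in shCtrl (adjusted p = 0.475), and its knockdown difference was -0.14 (SE 0.18, adjusted p = 0.656). The hormone differences of these 2 genes were close in shFoxA1 and shCtrl, and the contrast with KLK3 and KLK4 was not tested. Of the 5 kallikreins outside the 10 described (KLK7, KLK8, KLK9, KLK13 and KLK14) none was detected on 2 arrays. The 5 measured flanking genes (ACP4, C19orf48P, SNORD88B, SNORD88C and CTU1) did not pass either test, with adjusted p of 0.235 to 0.759 for knockdown.

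**Figure D2:**
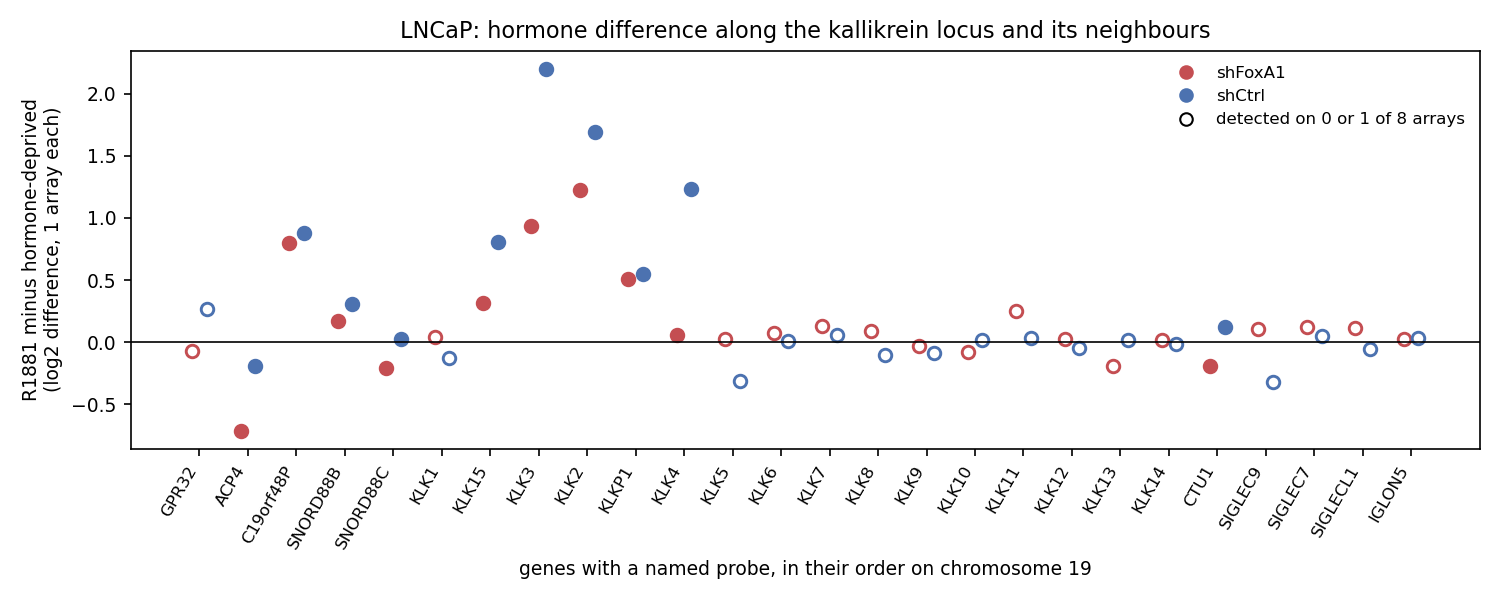
Log2 difference between R1881 and hormone-deprived arrays (vertical axis) for genes with a named probe in their order on chromosome 19 (horizontal axis, not to distance), shFoxA1 in red left of shCtrl in blue, 1 array each side, open where the gene was detected on 0 or 1 of 8 arrays. KLK3 reached 0.93 in shFoxA1 and 2.20 in shCtrl, KLK4 0.06 in shFoxA1 and 1.23 in shCtrl, and the points from KLK5 on lay between -0.32 and 0.25.

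The other single knockdown pairs were compared within their own table, with 1 array a group and no test. In the LNCaP siRNA pair, 2.27% of detected genes were at least 2-fold higher with siFoxA1 and 1.27% lower, and 1 kallikrein was higher (KLK2), of 6 detected on either array. KLK2 was 9.05 with siFoxA1 and 7.89 with siCtrl, a difference of 1.16 (2.23-fold). KLK3 was 9.61 with siFoxA1 and 8.76 with siCtrl, a difference of 0.85 (1.80-fold). KLK4 was 12.15 with siFoxA1 and 11.87 with siCtrl, and KLK15 was 6.56 with siFoxA1 and 6.68 with siCtrl. The KLK4 difference was 0.28 and the KLK15 difference -0.12, both smaller than those of KLK2 and KLK3.

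In 22RV1, a line from a castration-relapsed xenograft, 1.84% of detected genes were at least 2-fold higher with shFoxA1 and 1.44% lower, and 1 kallikrein was higher (KLK3), of 8 detected on either array. KLK3 was 6.31 with shFoxA1 and 5.11 with shCtrl, a difference of 1.20 (2.29-fold), on deposited intensities of 126.6 with shFoxA1 and 113.5 with shCtrl. Without normalization between arrays it was 0.60 and with median scaling 0.74, both under 2-fold, against medians of -0.58 and -0.45 over detected genes. KLK2 was 7.20 with shFoxA1 and 6.46 with shCtrl (0.74), but its deposited intensity was 166.7 with shFoxA1 and 176.6 with shCtrl, and with no normalization between arrays the difference was -0.04. KLK4 was 12.67 with shFoxA1 and 12.54 with shCtrl (0.13), and KLK15 was 6.74 with shFoxA1 and 6.46 with shCtrl (0.28). Without normalization both differences were also negative, -0.47 for KLK4 and -0.43 for KLK15, against a median of -0.58 over detected genes. KLK11 was 8.45 with shFoxA1 and 9.01 with shCtrl (-0.56), a difference of -1.30 without normalization, and KLK1 was 8.27 with shFoxA1 and 8.45 with shCtrl (-0.18).

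**Figure D3:**
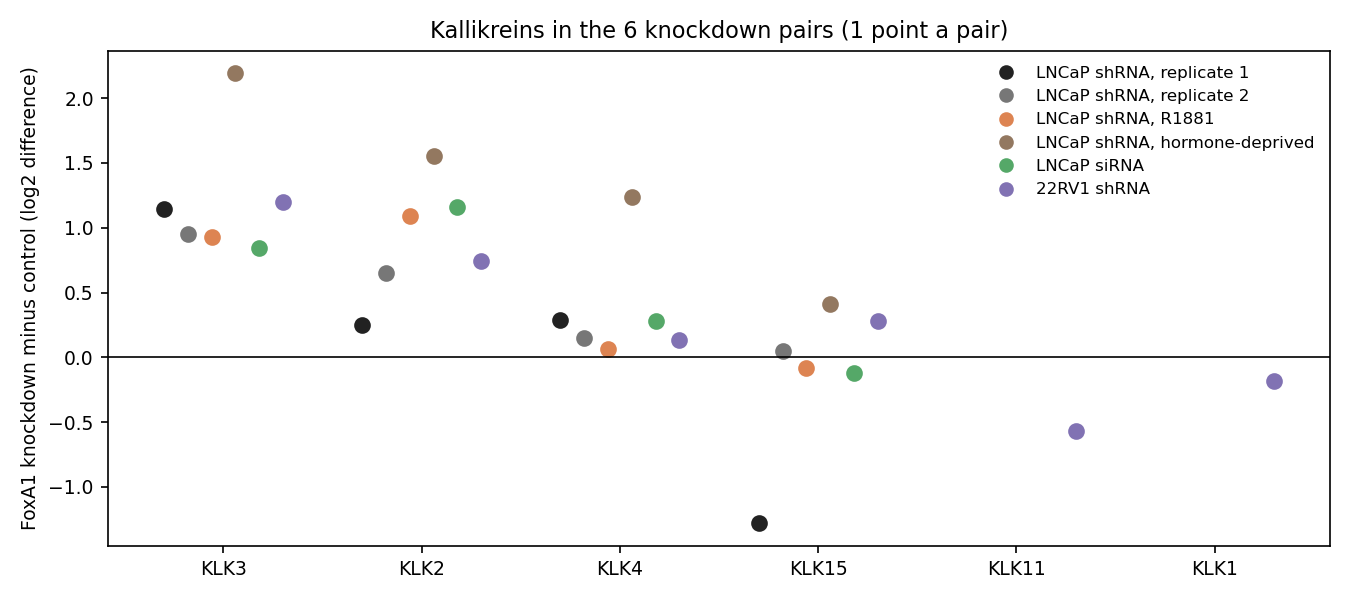
Log2 difference between FoxA1 knockdown and control (vertical axis) in 6 pairs for KLK3, KLK2, KLK4, KLK15, KLK11 and KLK1, the last 2 in 22RV1 alone, 1 point a pair, coloured by pair (KLK15 was undetected on some of these arrays). KLK3 was above 0 in all 6 pairs, from 0.85 to 2.19, and KLK2 in all 6, from 0.25 to 1.55, as normalized here (KLK2 at 1.55 is set against an undetected array, at least 2.79-fold). Without normalization KLK3 was 0.04 in the R1881 pair and 0.60 in 22RV1, and KLK2 was -0.04 in 22RV1. The medians over detected genes were then -0.72 in the R1881 pair and -0.58 in 22RV1.

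The lines differed in which kallikreins they expressed. KLK11 and KLK1, the tissue kallikrein that releases kinins, were detected in 22RV1 and undetected on every LNCaP and PC-3M array. In 22RV1 shCtrl, KLK11 was at least 22.6-fold and KLK1 at least 15.3-fold higher than in LNCaP siCtrl, in the same deposited table. The detected KLK11 signal came from 1 of 2 probes. KLK3 was lower in 22RV1 shCtrl than in LNCaP siCtrl (-3.65, 12.5-fold), as was KLK2 (-1.43, 2.69-fold). KLK4 differed by 0.67 and KLK15 by -0.23. Between these control arrays, 17.4% of detected genes were at least 2-fold higher in 22RV1 and 13.9% lower; 2 kallikreins were called each way, of 8 detected. Line, type of control (shRNA or siRNA) and medium, which is not settled for these arrays, cannot be told apart here.

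**Figure D4:**
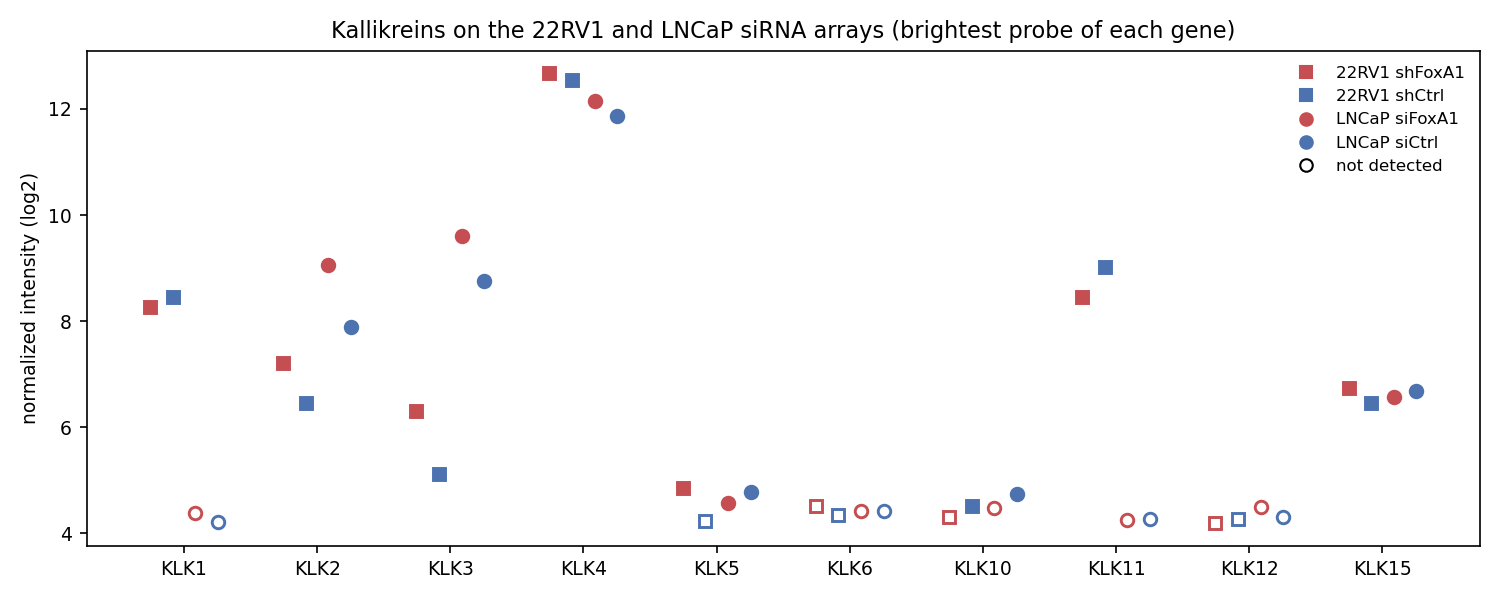
Normalized log2 intensity (vertical axis) of the brightest probe of each of the 10 kallikreins on the 22RV1 arrays (squares) and the LNCaP siRNA arrays (circles), knockdown in red and control in blue, open where not detected. KLK1 and KLK11 were detected in 22RV1 (8.27 to 9.01) and in neither LNCaP array, and KLK6 and KLK12 on none of the 4.

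The remaining members were undetected on most arrays and, where detected, dim and little above the detection limit. KLK12 was undetected with both probes on all 14 arrays. KLK5, a protease of skin shedding, was detected on the hormone-deprived shCtrl array among the LNCaP shRNA arrays (5.28), and at 4.86 on 22RV1 shFoxA1, 4.58 on LNCaP siFoxA1 and 4.79 on LNCaP siCtrl. KLK6, a protease abundant in the nervous system, was detected once, on the hormone-deprived shFoxA1 LNCaP array (5.20). Its other probe, the brighter one over the LNCaP shRNA arrays, was undetected there (4.79). KLK10 was detected on 22RV1 shCtrl (4.52), on LNCaP siCtrl (4.74) and on the PC-3M array labelled FoxA1 (5.08). For KLK5 and KLK10 a single probe gave these values, and their remaining probes were undetected on all 14 arrays.

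In PC-3M, a metastatic line derived from PC-3, 1.05% of detected genes were at least 2-fold higher on the array labelled FoxA1 and 1.44% lower, and 0 kallikreins were either. KLK10 was the sole member detected, at least 1.09-fold higher on the array labelled FoxA1, and no kallikrein was detected on Ctrl. KLK3, KLK2 and KLK4 were undetected on both PC-3M arrays.

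Genes that act with kallikreins were taken from lists. Of 7 protein inhibitors, 2 were measured in LNCaP and 1 rose, where 4.15% of all genes were called higher. SERPINA3, or alpha-1-antichymotrypsin, which binds KLK3 in serum, was 11.17, 9.50, 8.55 and 7.12 in shFoxA1, against 6.08, 6.65, 6.40 and 6.50 in shCtrl. The groups did not overlap, and the difference was 2.68 (SE 0.58, limma adjusted p = 0.0333). It was 10.46 with siFoxA1 and 6.86 with siCtrl, and undetected in 22RV1. SERPINA5, the protein C inhibitor, differed by 0.61 (adjusted p = 0.245) over the 8 arrays and rose by 1.44 on the numbered arrays (limma adjusted p = 0.0313). SERPINA5 was undetected on the numbered shCtrl arrays, so the 1.44 is set against values below the detection limit. Its pair differences were 1.56 and 1.32 (numbers 1 and 2), -0.07 (R1881) and -0.37 (hormone-deprived).

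Of 14 known kallikrein substrates 5 were measured and 0 were called, while 2 had an unadjusted p under 0.05 in limma, against 27.3% of all genes. IGFBP3, a carrier of insulin-like growth factors that KLK3 cleaves, differed by 3.24 (SE 0.85, adjusted p = 0.0533), with pair differences of 7.05 and 3.08 (numbers 1 and 2), 1.63 (R1881) and 1.18 (hormone-deprived). FN1, fibronectin, differed by 0.42 (adjusted p = 0.0777). SEMG1, the semenogelin that KLK3 cleaves in semen, was detected on both numbered shFoxA1 arrays (8.62 and 5.42) and on no other LNCaP shRNA array, with a difference of 1.48 (adjusted p = 0.200). The probes used for FN1, SEMG1 and SEMG2 were detected on shFoxA1 arrays alone, so the detection filter kept these probes only through that group. A second FN1 probe was detected on 4 of the 8 arrays, among them the hormone-deprived shCtrl array, and differed by 0.60 (SE 0.21). The median difference of the 5 (0.42, against -0.01 over all genes) therefore says nothing about substrates as a set. MBP, another of the 5, went the other way (-0.09, limma adjusted p = 0.729).

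Of 9 transcription factors listed for KLK3 control, 4 were measured and 2 fell, where 3.74% of all genes were called lower. The 2 were FOXA1, which the shRNA targets, and SPDEF, an ETS factor of prostate epithelium. SPDEF was 7.60, 8.16, 8.42 and 7.41 in shFoxA1, against 9.47, 9.55, 9.23 and 7.70 in shCtrl (-1.09, SE 0.24, limma adjusted p = 0.0361). GATA2 differed by 0.51 (adjusted p = 0.107) and HOXB13 by -0.09 (adjusted p = 0.685). Of the 4 luminal markers 1 fell and 0 rose, against 3.74% and 4.15% of all genes. KRT8 differed by 0.67 (limma adjusted p = 0.0789), KRT18 by -0.12 and HOXB13 as given. The one that fell was SLC45A3, or prostein (-2.66, adjusted p = 0.00446), and it was higher with R1881 by 1.46 in shFoxA1 and 2.05 in shCtrl. Of 6 protease-activated and kinin receptors 1 was measured, F2R, at 0.18 (adjusted p = 0.366).

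Genes most alike to KLK3 across the 8 LNCaP shRNA arrays were KRT19, a keratin (Pearson r = 0.973), NMD3, a ribosome export factor (0.964), and PTGER4, a prostaglandin E receptor (0.949). KLK2 and KLK4 followed KLK3 at 0.938 and 0.926, and KLK15 at 0.21. For KLK4 the most alike were BMPR1B (0.982), C1orf21 (0.931) and SLC39A1 (0.926). These correlations over 8 arrays share normalization and the single hormone-deprived shCtrl array, and are given as a description.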

How the data were processed

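Total RNA was hybridized to Illumina bead arrays and read out in GenomeStudio, per the submitters' processing notes. The deposited tables held probe intensity not normalized between arrays, with a detection p-value, per the file headers. Intensities fell below 0 in the LNCaP shRNA and PC-3M tables, as after background subtraction, and stayed well above 0 in the siRNA and 22RV1 table, where 4 columns headed as detection p-value hold whole numbers and were set aside. The deposited matrix of intensity, whose arrays share the same sorted values within 3 sets, served as an alternative. The numbered LNCaP arrays form one set, and the siRNA and 22RV1 arrays another. The R1881 and hormone-deprived LNCaP arrays share the remaining set with PC-3M.

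Each table was processed alone in R 4.3.3 with limma 3.58.1: normexp background correction (offset 16) and quantile normalization, on the log2 scale. Detected means a detection p below 0.05, or, in the siRNA and 22RV1 table, above the intensity mode plus 1.645 SD. Probes detected on at least 2 of the 8 LNCaP shRNA arrays were kept (22177 probes, 11892 genes), with 1 probe a gene, the brightest. The fit had knockdown and medium (3 labels) as terms, 4 residual degrees of freedom and 4.41 prior ones. A fit with 6 group means (2 residual degrees of freedom) gave the numbered contrast and the interaction. It also gave knockdown over the R1881 and hormone-deprived arrays, and its spread came from the numbered arrays alone. Tests were two-sided with Benjamini-Hochberg adjustment over all genes. They were also run on simulated arrays with known changes and independent noise, which does not cover variation shared between arrays. In single pairs a gene was called at a 2-fold difference if the brighter array detected it. Where the dimmer probe was undetected, the fold was taken against that array's detection limit and is a lower bound.

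Arrays sharing a number did not deviate together from their groups (correlation -0.173), so no pairing was assumed. Named genes were the 10 members, FOXA1, the members of each list that passed the knockdown test or had the largest differences, up to 5 genes either side of the cluster, and the 3 most alike to each member detected on all 8 arrays. Members and lists were chosen with earlier results of these data known. Some listed genes are not analysed here. Probe sequences were not used, so cross-hybridization between the similar KLK2 and KLK3 was not tested. Motifs were searched in RefSeq promoter windows, aligned with Biopython 1.88.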

Additional observations from a re-analysis of the deposited data

How the results depend on the processing

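The 2 kallikreins called with knockdown became 1 with median scaling, the deposited matrix, no normalization, detection on all 8 arrays (which removes KLK2), numbered and R1881 arrays as 1 medium, or the replicate block of the 4 pairs (KLK2 adjusted p = 0.0587, KLK3 0.0336). They became 0 with no filter, no medium term, or the R1881 and hormone-deprived arrays alone, and lay between 0 and 2 when single arrays or pairs were left out: 0 without shFoxA1 replicate 2, shCtrl replicate 1, both arrays numbered 2 or the R1881 pair, and 1 without shCtrl replicate 2 or the hormone-deprived pair. The direction of KLK2, KLK3 and KLK4 held in all of these. KLK15 (-0.23) lay between -0.44 and 0.13 with arrays left out, and reversed to 0.01 without shCtrl replicate 1, 0.13 without both arrays numbered 1 and 0.17 with the R1881 and hormone-deprived arrays alone. On the numbered arrays 0 members became 1 with no background correction, median scaling, no normalization, scaling on detected probes or detection on all 8 arrays, and stayed at 0 with the replicate block of the numbered pairs and when arrays were left out. Between R1881 and hormone-deprived medium 0 became 1 with median scaling, 2 with no normalization, 2 with numbered and R1881 arrays as 1 medium (KLK2 adjusted p = 0.0257, KLK3 0.0267), and ranged from 0 to 1 with arrays left out (1 without shFoxA1 replicate 1). The interaction stayed at 0 throughout. Counting numbered and R1881 arrays as 1 medium joins 2 sets of the deposited matrix. Medium and set cannot be fully told apart in that setting. The causes were not tested.

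In single pairs at 2-fold, R1881 in shFoxA1 (1 member) gave 0 with no background correction or an offset of 50 and 2 at 1.5-fold. Knockdown with R1881 (1) gave 0 with no background correction, an offset of 50, median scaling or no normalization, and 2 at 1.5-fold. The siRNA pair (1) gave 2 at 1.5-fold, and 22RV1 (1) gave 0 with no background correction or an offset of 50, 2 with scaling on detected probes and 3 at 1.5-fold. With median scaling or no normalization the 22RV1 call was again 1 but of another gene and lower: KLK11 (-1.17 and -1.30), in place of KLK3 (0.74 and 0.60). In these settings the median over detected genes of the 22RV1 pair was itself shifted, to -0.45 and -0.58. Genes called in all numbered 939 with knockdown (1 to 1456 over settings), 312 on the numbered arrays (0 to 1097) and 30 for R1881 (0 to 131). Crossing the numbers in the block gave 1097 genes and 0 members, against 55 genes with the numbers as labelled. Median scaling shifted the median of all genes by -0.15 and no normalization by -0.23 in the knockdown fit, and by 0.18 and 0.25 in the R1881 fit. No normalization and scaling on detected probes, the crossed block, the R1881 and hormone-deprived arrays alone, leaving out single R1881 or hormone-deprived arrays, and spread shared over all probes were added after seeing the data. Dim probes near background (KLK15, KLK5, KLK10, and KLK3 in 22RV1) limit what can be said of their differences.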
